A study of Mus musculus with 4 samples.

Results

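The immunity-related GTPases (IRGs) were followed as a gene family of 8 members (Irgm1, Irgm2, Igtp, Ifi47, Tgtp1, Tgtp2, Iigp1 and Gm4951) among the 31053 genes counted in 4 single-cell libraries of CD45+ immune cells. The members were taken by name, as the IRG genes of the mouse interferon response, and not by a rule on a measured value. Earlier results of these data were known when they were chosen. Control skin came from uninoculated C57/BL6 mice and gave 2 libraries. Skin tumors came from C57/BL6 mice, female and male, that had been injected under the skin of the flank with cells of the 2323 line, and gave the other 2 libraries. The 2323 line is a single line from a skin tumor graft model with K14rtTA, tetOCre and P53-/- among its alleles, so both tumors stand for 1 line. The labels give neither the sex of the mouse behind a library nor whether equal replicate numbers share a day. Sex-linked transcripts, given below with the libraries, were those of male cells in all 4 libraries. Tissue was digested with collagenase IV, live CD45+ cells were sorted, and 1 droplet library of transcript 3' ends was made per skin or tumor. The question was how the level of each IRG gene differed between immune cells of the tumors and of control skin, and in which cell types.

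IRGs are GTPases that cells make in response to interferons, with interferon-γ as the strongest inducer. They are best known for defence against parasites and bacteria that live inside vacuoles. Effector IRGs (here Iigp1, Tgtp1, Tgtp2 and Ifi47) load onto the vacuole membrane and help to break it. Regulator IRGs of the Irgm type (Irgm1, Irgm2 and Igtp, which is also called Irgm3) sit on the cell's own membranes and keep the effectors inactive there. Guanylate-binding proteins (GBPs) and the enzymes that attach ATG8 proteins to membranes work beside them. Mouse T cells that lack Irgm1 are known to survive poorly under interferon-γ.

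In GRCm38, the build of the deposited files, 6 members lay on chromosome 11. There Irgm1 (chr11:48861968-48871683, minus strand), Tgtp1 (chr11:48985327-48994172, minus), Tgtp2 (chr11:49057194-49064206, minus) and Ifi47 (chr11:49076587-49096974, plus) followed each other. Igtp (chr11:58199556-58207591, plus) and Irgm2 (chr11:58199618-58222782, plus) lay 9102581 bases further on, and their annotated spans overlapped by 7974 bases. Tgtp1 and Tgtp2 are close copies. Of the 90-base windows in the last 500 bases of their transcripts, 74% of those of Tgtp1 and 65.9% of those of Tgtp2 also occurred in transcripts of another gene, each other's among them. Reads may therefore have been split or lost between them, and their values are uncertain. In the same windows Igtp and Irgm2 shared none and Ifi47 1.76%.

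The promoters are shown because 5 of the 6 that could be read held letters of an interferon-response motif, and 4 of them held both motifs in the same arrangement. RefSeq promoter windows (GRCm38.p6, 250 bases before to 50 after the start, printed 5′ to 3′ on the gene's strand) were searched on both strands for TTCNNNGAA, the GAS motif of the interferon-γ response, and for GAAA followed after 2 bases by a further GAAA, the core of the ISRE motif of the type I interferon response. Capitals mark the matches.
Irgm1 (chr11:48871371-48871670, minus): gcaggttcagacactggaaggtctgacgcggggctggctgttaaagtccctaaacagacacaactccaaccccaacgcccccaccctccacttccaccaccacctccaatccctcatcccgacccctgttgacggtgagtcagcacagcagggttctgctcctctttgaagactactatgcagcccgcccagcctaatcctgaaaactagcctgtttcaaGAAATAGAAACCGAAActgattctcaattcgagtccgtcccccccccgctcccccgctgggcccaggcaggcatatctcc
Irgm2 (chr11:58214727-58215026, plus): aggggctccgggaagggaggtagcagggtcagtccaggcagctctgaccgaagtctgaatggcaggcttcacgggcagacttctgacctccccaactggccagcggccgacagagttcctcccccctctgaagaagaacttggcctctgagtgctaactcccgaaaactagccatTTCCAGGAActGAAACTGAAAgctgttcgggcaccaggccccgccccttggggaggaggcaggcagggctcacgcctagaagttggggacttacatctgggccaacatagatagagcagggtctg
Igtp (chr11:58199306-58199605, plus): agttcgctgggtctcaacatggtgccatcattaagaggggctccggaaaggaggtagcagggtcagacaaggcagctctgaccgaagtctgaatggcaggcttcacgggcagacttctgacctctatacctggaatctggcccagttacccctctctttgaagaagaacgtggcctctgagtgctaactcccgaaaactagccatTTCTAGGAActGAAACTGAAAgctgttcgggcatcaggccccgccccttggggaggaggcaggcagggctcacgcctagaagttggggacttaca
Tgtp1 (chr11:48992197-48992496, minus): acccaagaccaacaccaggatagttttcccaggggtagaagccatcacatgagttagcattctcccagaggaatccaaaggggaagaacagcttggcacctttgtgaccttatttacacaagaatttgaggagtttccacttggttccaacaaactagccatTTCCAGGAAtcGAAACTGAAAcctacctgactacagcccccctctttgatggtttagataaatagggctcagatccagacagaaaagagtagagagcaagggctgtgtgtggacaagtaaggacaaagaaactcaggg
Tgtp2 (chr11:49064163-49064462, minus): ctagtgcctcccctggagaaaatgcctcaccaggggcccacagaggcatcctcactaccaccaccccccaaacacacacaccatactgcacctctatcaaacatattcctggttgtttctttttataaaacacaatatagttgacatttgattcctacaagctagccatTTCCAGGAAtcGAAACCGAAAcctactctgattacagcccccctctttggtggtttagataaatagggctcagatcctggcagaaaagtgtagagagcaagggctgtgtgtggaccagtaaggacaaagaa
In Irgm2, Igtp, Tgtp1 and Tgtp2 a GAS match was followed after 2 bases by an ISRE core, and the pair began 75, 45, 88 and 81 bases before the start, respectively. In Irgm1 there were 2 ISRE cores that overlapped each other and no GAS match. The window of Ifi47 held neither. Among all 32851 windows of this length, 8.30% held a GAS match, 3.44% an ISRE core and 0.454% both. Around the pair the windows of Irgm2 and Igtp are nearly the same, as are those of Tgtp1 and Tgtp2. The 4 are therefore not independent of each other. No window was available for Iigp1 and Gm4951. A match describes letters only and was not tested as a binding site.

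The libraries held 34893543 to 73904272 unique molecular identifiers (UMIs, 1 per captured transcript) in 2258 to 5176 cells. Of 14795 cells, 12848 passed the filters, and 9057 of these (70.5%) fell into 1 of 15 marker-gated types. The defining markers matched the labelled immune sort, since 96.6% to 98.0% of gated cells had Ptprc (CD45). Any pair of libraries shared 1 to 7 barcodes. Over the cells kept, Y-linked Ddx3y stood at 2.39 and 2.09 per 10,000 UMIs in control skins and at 0.953 and 1.29 in tumors. Xist, which female cells express, stood at 0.00049 and 0.00023 in control skins and at 0.0045 and 0.0059 in tumors. Dendritic epidermal T cells (DETC) numbered 531 and 638 in the control libraries and 10 and 22 in the tumor libraries, and Langerhans cells (LC) 356 and 317 against 1 and 6. Levels are given as UMIs of the gene per 10,000 UMIs of the type in that library. Each transcript is tagged once at its 3' end, so these levels are not divided by length.

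Over all gated cells, the 8 genes together stood at 0.867 and 0.721 UMIs per 10,000 in control skins 1 and 2 and at 4.90 and 4.0 in skin tumors 1 and 2, with no overlap. With 2 libraries in each group, the smallest p that an exact two-sided permutation test of such a sum allows is 0.33, so none is given. The mixture of cells moved at the same time. C1q macrophages (cells with C1qa, C1qb and C1qc) held 5.47% and 12.3% of gated UMIs in the controls but 65.4% and 64.5% in the tumors. They gave 79.1% and 77.9% of the family's UMIs in the tumors. In control skin, DETC were the main source, with 32.4% and 33.8%. Over the 13 types with at least 10 cells in each library, which leaves out LC and dermal γδ T cells, the sum was 1.11 and 0.878 in the controls and 4.90 and 4.01 in the tumors. With the control mixture of those types in every library it was 1.05 and 0.916 in the controls and 5.35 and 2.6 in the tumors, so both tumors remained above both controls. The value of skin tumor 1 includes its 10 DETC, of which 1 cell is described with Iigp1.

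**Figure D1:**
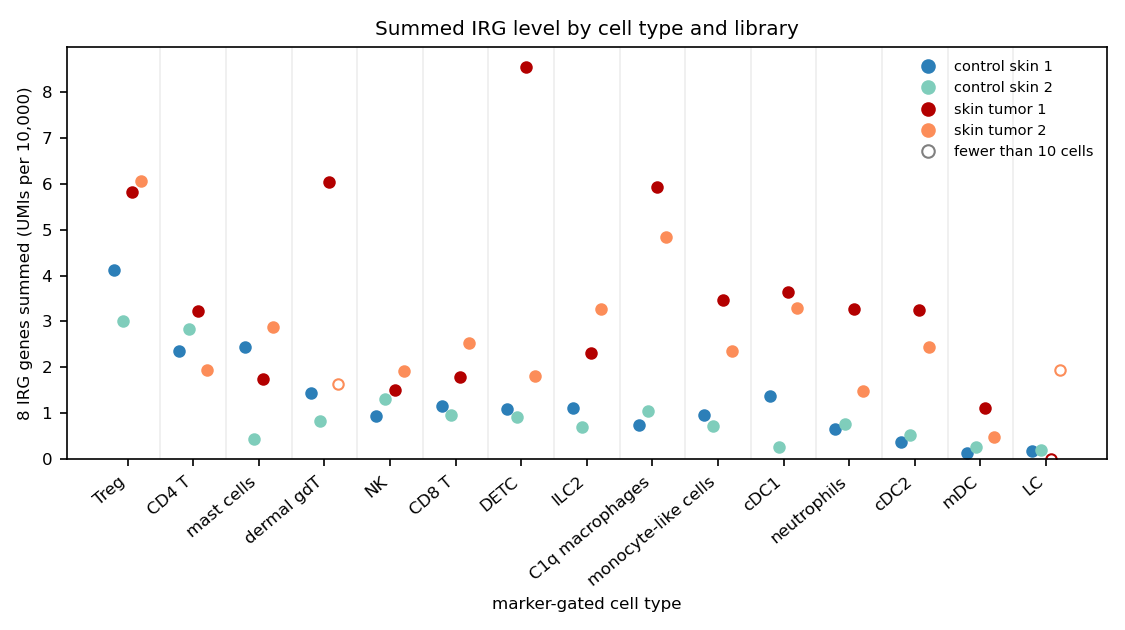
Summed level of the 8 IRG genes (y axis, UMIs per 10,000) in each marker-gated cell type (x axis, ordered by the control mean), 1 point per library, with open points for fewer than 10 cells. Treg were highest in control skin (4.12 and 3.02), and C1q macrophages stood at 0.752 and 1.06 in control skin against 5.93 and 4.83 in the tumors.

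Regulatory T cells (Treg) held the most IRG transcripts in control skin, at 4.12 and 3.02 UMIs per 10,000, followed by CD4 T cells at 2.36 and 2.83. Treg stood clear of CD4 T cells, both libraries of the one above both of the other. From CD4 T cells down to cDC1 (1.37 and 0.259) no type was clear of the next in this order. Neutrophils (0.665 and 0.767) were clear of type 2 conventional dendritic cells (cDC2, 0.387 and 0.527), and these of mature dendritic cells (mDC, 0.144 and 0.271). LC had the lowest mean, at 0.179 and 0.195, and were not clear of mDC.

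Single members differed from this order. Tgtp1 and Gm4951 did not pass the low-count filter in control skin and were not tested between types there. In a fit over the 2 control libraries (edgeR's quasi-likelihood test, each type against the mean of the other types, Benjamini-Hochberg adjusted over 10474 genes), 3 members were higher in Treg, where 7.27% of all genes were. These were Irgm2 (log2 difference 3.25, SE 0.446, adjusted p = 1.11e-05), Igtp (3.25, SE 0.368, 3.92e-07) and Iigp1 (3.95, SE 1.10, 0.0203). CD4 T cells were higher for the same 3 and for Tgtp2 (2.95, SE 0.445, adjusted p = 1.85e-05), against 12.8% of all genes. The regulator Irgm2 was also higher in DETC (log2 difference 1.99, background 28.7%) and dermal γδ T cells (1.66, background 15.8%). Tgtp2 was higher in mast cells (2.52, background 8.6%), CD8 T cells (1.52, background 15%) and type 2 innate lymphoid cells (ILC2; 1.33, background 19%). LC were lower for Irgm1 (log2 difference of -1.55), Igtp (-2.45) and Ifi47 (-3.33), where 10.3% of all genes were lower. Some calls rest on few cells. All 17 Iigp1 UMIs of the cDC1 of control skin 1 came from 1 cell, as did 21 of the 34 in its CD4 T cells, 13 of the 25 in its monocyte-like cells and 7 of the 11 in its Treg. Of the 11 Tgtp2 UMIs in its mast cells, 8 came from 1 cell. Iigp1 was called higher in cDC1, CD4 T cells and monocyte-like cells too, by 4.03 (background 19.7%) and 4.10 in cDC1 and CD4 T cells and by 2.57 in monocyte-like cells (background 21%). The mean of the other types includes types without a UMI in control skin. These were neutrophils, mast cells and natural killer cells for Iigp1 (-4.79, SE 28959 in the last), mast cells for Irgm2 and mDC for Tgtp2. The sizes of the differences for these genes are therefore uncertain. Ifi47 was 1.05 higher in C1q macrophages, where 25.1% of all genes were higher.

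Between tumor and control, 65 pairs of a member and a type could be tested in 12 of the 13 types with at least 10 cells per library. No member passed the low-count filter in mDC, where 2.63% of all genes were called higher. Of the 65 pairs, 16 were called higher in the tumors and 0 lower (edgeR's quasi-likelihood test, adjusted p under 0.05). At an unadjusted p under 0.05, 1 pair was lower, Tgtp2 in CD4 T cells, and DESeq2 called 0 lower. Of all genes tested, the share called lower was 0.196% in C1q macrophages, 0.498% in monocyte-like cells, 2.35% in cDC1, 5.83% in cDC2, 3.63% in mDC, 0% in neutrophils, 4.11% in mast cells, 0% in DETC, 6.41% in CD8 T cells, 4.52% in CD4 T cells, 2.23% in Treg, 1.48% in NK cells and 7.3% in ILC2. The number of all genes called higher ran from 0 of 3532 in neutrophils to 405 of 7169 in ILC2, and the share stands with each type below. Iigp1 was called in 6 of the 9 types where it was tested, Gm4951 in 3 of 3 and Irgm2 in 3 of 10. Igtp was called in 0 of 11, but in 4 at an unadjusted p under 0.05 (C1q macrophages, monocyte-like cells, cDC2 and DETC), and in 1 by DESeq2. Members passed the filter partly through the tumor counts, so the tested pairs do not stand for all members. Fold changes and rises from control to tumor below are on the log2 scale, save where a value is written as '-fold'.

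**Figure D2:**
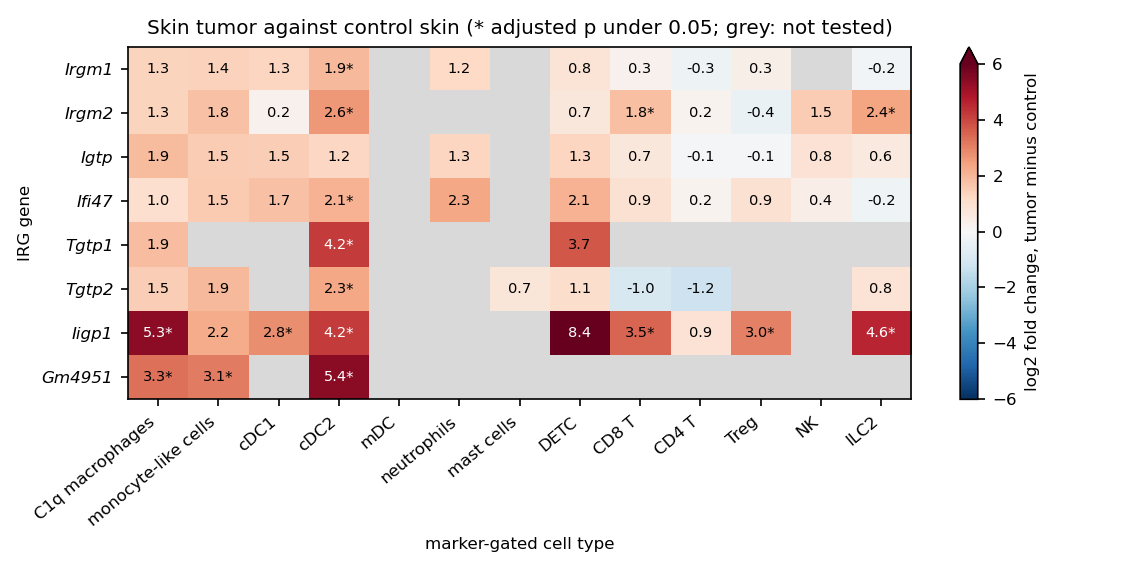
Log2 fold change of each IRG gene (rows) in each fitted cell type (columns), skin tumor minus control skin, from the edgeR fit of 2 libraries against 2. Stars mark adjusted p under 0.05 and grey marks pairs not tested. The 16 starred cells lie in 7 types, and cDC2 holds 7 of them.

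Iigp1, an effector that coats pathogen vacuoles, showed the largest change in C1q macrophages. It stood at 0.0516 and 0.0348 UMIs per 10,000 in control skins 1 and 2 (7 and 12 UMIs) and at 2.15 and 1.60 in skin tumors 1 and 2 (8548 and 2429 UMIs). The groups did not overlap. It rose by a log2 fold change of 5.34 (SE 0.292, adjusted p = 0.00485, 40.6-fold), in a type where 0.212% of all genes were called higher. Gm4951, a less studied gene of the family and the neighbour of Iigp1, stood at 0.0811 and 0.139 in control macrophages and at 1.44 and 1.14 in tumor macrophages. It rose by 3.29 (SE 0.283, adjusted p = 0.0213, 9.75-fold), also with no overlap. These 2 of 8 members were the ones called in macrophages. Gm4951 (chr18:60212080-60247820, plus) and Iigp1 (chr18:60376027-60392634, plus) are neighbours on chromosome 18 of GRCm38, with a gap of 128206 bases. Without control skin 1 or without control skin 2 neither was called. The log2 fold changes were then 5.57 and 5.03 for Iigp1 and 3.04 and 3.84 for Gm4951. Of all genes, 0 of 13828 and 0 of 13946 were called higher in those fits, so the lost calls say nothing of these genes in particular.

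The other 6 members had positive but smaller differences in macrophages and did not pass the test. The regulator Irgm1 stood at 0.228 and 0.252 in control and at 0.657 and 0.723 in tumor macrophages (log2 fold change 1.33, SE 0.208, adjusted p = 0.0671). Igtp stood at 0.0590 and 0.104 against 0.364 and 0.361 (1.88, SE 0.302, adjusted p = 0.0715). Both genes were higher in both tumors than in both controls, as were all 8 members, where 23.9% of all genes tested had that order. Irgm2 (1.32), Tgtp2 (1.48), Tgtp1 (1.86) and Ifi47 (1.0) had adjusted p-values from 0.14 to 0.437. The median over the 8 was 1.67, and over all genes tested 0.03. The make-up of the family's UMIs in macrophages moved with this. Iigp1 and Gm4951 gave 5.07% and 11.9% of them in control skin and 34.6% and 24.0% in the tumors, while Irgm1 gave 27.1% and then 13%, and Ifi47 28.1% and then 11.0%. These shares describe the 2 genes that were called and were not tested.

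**Figure D3:**
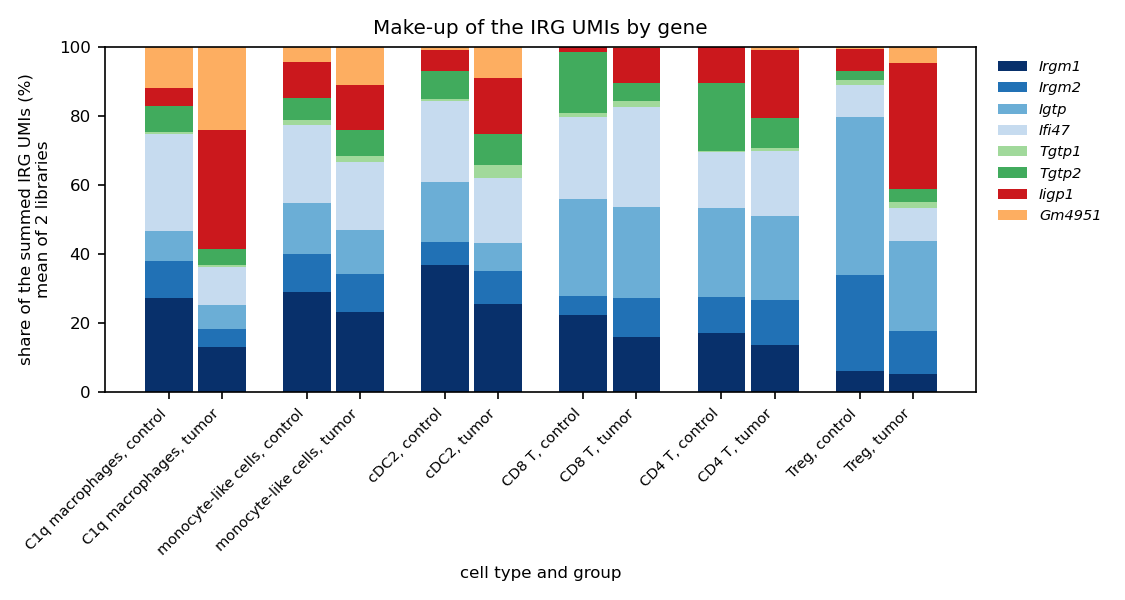
Share of the summed IRG UMIs that each gene gave (y axis, percent, mean of 2 libraries) in 6 cell types of control skin and of skin tumor (x axis). In C1q macrophages the Iigp1 share was 5.07% in control skin and 34.6% in the tumors, and in Treg Igtp gave 45.7% and 26.2%.

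Most members were called in cDC2, conventional dendritic cells that present antigen to CD4 T cells. There 7 of 8 members were called higher, in a type where 4.12% of all genes were. Of the 7, Gm4951, Tgtp1, Iigp1, Irgm2 and Tgtp2 were scarce in at least 1 control and passed the low-count filter only with the tumor counts. The count of 7 of 8 is therefore no independent support for a change. Of the 10 top genes of the gated cDC2, only Cd209a stood in the lists of both groups. Control cDC2 held Mgl2, Cd163, Mmp12 and Ear2 among theirs, and tumor cDC2 held Bcl11a, Napsa and H2-Oa. Whether the gate caught the same kind of cell in both groups was not tested. Gm4951 was at 0 and 0.00818 UMIs per 10,000 in control cDC2 (0 and 2 UMIs) and at 0.380 and 0.151 in tumor cDC2, a log2 fold change of 5.41 (SE 0.828, adjusted p = 0.0170). Iigp1 went from 0.0415 and 0.00818 to 0.514 and 0.413, a change of 4.2 (SE 0.540, adjusted p = 0.0117). Tgtp1 rose by 4.18, from 0 and 2 UMIs to 53 and 10 UMIs. These 3 started from 8 UMIs or fewer in both controls together, so their fold changes are less certain than those of the regulators.

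The regulators and Ifi47 were counted more often in cDC2. Irgm1 stood at 0.173 and 0.151 in control cDC2 and at 0.758 and 0.675 in tumor cDC2, a rise of 1.94 (SE 0.236, adjusted p = 0.0106, 3.82-fold). Ifi47 went from 0.0899 and 0.123 to 0.646 and 0.429, a rise of 2.10 (SE 0.313, adjusted p = 0.0162). Irgm2 rose by 2.61 (0.0138 and 0.0531 to 0.276 and 0.254, adjusted p = 0.0267) and Tgtp2 by 2.32 (0.0208 and 0.0572 to 0.249 and 0.246, adjusted p = 0.0286). Igtp, at 0.0484 and 0.119 against 0.282 and 0.191, did not pass (1.23, SE 0.442, adjusted p = 0.123). All 8 members were higher in both tumors than in both controls, against 31.7% of all genes, and their median was 2.47 against 0.03 over all genes. Without control skin 1 or without control skin 2 none was called, in fits that called 4 of 10562 and 2 of 9422 genes higher. Over the settings tried that gave a value, the log2 fold change ran from 1.82 to 2.30 for Irgm1 and 1.79 to 2.48 for Ifi47. For Irgm2 it ran from 2.10 to 3.98 and for Tgtp2 from 1.89 to 3.31. It ran from 3.24 to 5.54 for Iigp1, 3.54 to 7.58 for Tgtp1 and 4.55 to 8.84 for Gm4951. Dissociation genes such as Fos and Hspa1a summed to 38.7 and 39.5 UMIs per 10,000 in control cDC2 and to 68.5 and 103 in tumor cDC2, and 4 of 10 rose. Their part in the result was not tested.

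In cDC1, which present antigen to CD8 T cells, Iigp1 was the member called of 5 tested (background 0.759%). It stood at 0.319 and 0.0777 in the controls and at 1.22 and 1.84 in the tumors, a rise of 2.77 (SE 0.552, adjusted p = 0.0395). The controls rest on 1 cell each, with 17 and 6 UMIs, and 41 of the 74 UMIs of skin tumor 2 came from 1 of its 12 cells. Without control skin 2, skin tumor 1 or skin tumor 2 it was not called (fold changes of 1.96, 3.05 and 2.45), in fits that called 0 of 7116, 0 of 6840 and 0 of 7947 genes higher. In cDC1, 4 of 5 members did not overlap, against 27.6% of all genes. In monocyte-like cells Gm4951 was the member called of 7 tested (background 0.205%). It went from 0.0376 and 0.0330 to 0.394 and 0.249, a rise of 3.14 (SE 0.374, adjusted p = 0.0324). Without control skin 1 (3.19) or control skin 2 (3.05) it was not called, nor with stricter gates (3.27) or without cycling cells (2.78). Those fits called 0 of 10883, 0 of 10925, 1 of 9944 and 10 of 9743 genes higher. All 7 tested members lay higher in both tumors there, as did 23.5% of all genes.

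**Figure D4:**
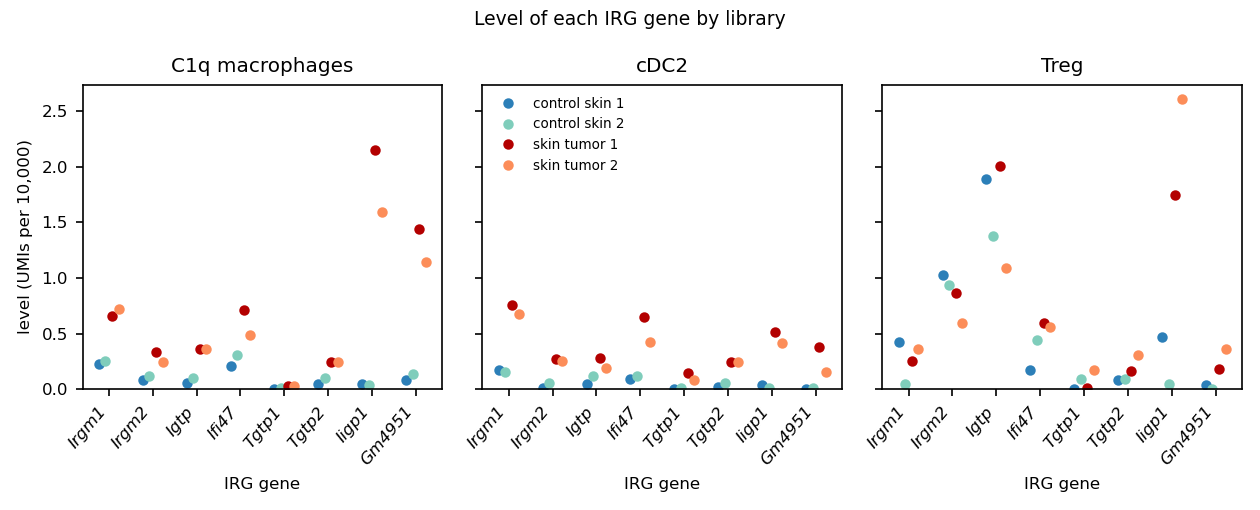
Level of each IRG gene (x axis) in UMIs per 10,000 (y axis, linear) in C1q macrophages, cDC2 and Treg, 1 point per library. In C1q macrophages and cDC2 both tumors lie above both controls for all 8 genes. For Irgm2 in Treg both lie below both controls, a difference that was not called.

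In Treg, which suppress other T cells, Iigp1 rose and the regulators did not pass the test. Iigp1 stood at 0.472 and 0.0444 UMIs per 10,000 in control Treg and at 1.75 and 2.61 in tumor Treg, a rise of 3.02 (SE 0.535, adjusted p = 0.00869, 8.13-fold). It was called in each of the 4 fits without a library, by 2.16 to 5.50. It was 1 of 5 members tested, and 1.71% of all genes were called higher. Igtp stood at 1.89 and 1.38 in control and at 2.00 and 1.09 in tumor Treg (log2 fold change -0.06, SE 0.344), and the groups overlapped. Irgm2 stood at 1.03 and 0.932 against 0.862 and 0.594 (-0.42, SE 0.366, adjusted p = 0.628). Both tumors lay below both controls, but the share of all genes in that order was not counted. The Treg values come from 22 and 21 control cells and 83 and 43 tumor cells. Of the 136 Iigp1 UMIs of skin tumor 2, 50 came from 1 cell. Iigp1 in tumor Treg was 81.3% and 163% of its level in the macrophages of the same library, while C1qa, C1qb and C1qc together were at 0.484% and 2.07% of theirs. Gm4951 was at 12.4% and 31.8%. T cells with a high C1q level were left out of the gates, so the low C1q level is in part set by the gate. How much of the Iigp1 came from macrophage RNA was not tested. The call of Iigp1 was lost with DESeq2 (3.05, adjusted p = 0.276) and with stricter gates (1.72, adjusted p = 0.298). In Treg, 2 of 5 members lay higher in both tumors, against 24.8% of all genes.

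CD8 T cells had 2 of 6 members called, against 4.4% of all genes. Iigp1 went from 0.0134 and 0.0191 (2 and 1 UMIs) to 0.161 and 0.288, a rise of 3.50 (SE 0.690, adjusted p = 0.0125). Irgm2 went from 0.0603 and 0.0574 to 0.255 and 0.205, a rise of 1.80 (SE 0.471, adjusted p = 0.0394). Tgtp2 stood at 0.194 and 0.172 in the controls and at 0.103 and 0.123 in the tumors (-0.96, SE 0.431, adjusted p = 0.190). Both tumors lay below both controls, but the share of all genes in that order was not counted. In the CD8 T cells of the tumors Iigp1 was at 7.49% and 18.0% of the macrophage level of the same library, against 0.653% and 1.91% for C1qa, C1qb and C1qc. The gate limits the C1q level here as in Treg, and the part of macrophage RNA was not tested. Without control skin 1 or without control skin 2 neither gene was called, with fold changes of 3.30 and 3.64 for Iigp1 and of 1.91 and 1.71 for Irgm2, in fits that called 296 of 7095 and 144 of 9489 genes higher. The call of Irgm2 was also lost without skin tumor 1 (1.63), with DESeq2 (1.79) and with stricter gates (1.62). In CD8 T cells 4 of 6 members lay higher in both tumors, against 28.2% of all genes.

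CD4 T cells, the type with the second highest family level in control skin, had 0 of 6 tested members called, where 4.88% of all genes were called higher. By unadjusted p, 1 member was lower there and 0 higher, and DESeq2 called 0. The family sum was 2.36 and 2.83 in the controls and 3.23 and 1.95 in the tumors. Tgtp2, which had its highest control mean here, stood at 0.407 and 0.625 in the controls and at 0.229 and 0.203 in the tumors. Its log2 fold change was -1.24 (SE 0.366, adjusted p = 0.0674). Igtp stood at 0.555 and 0.789 against 0.661 and 0.558, and Iigp1 at 0.419 and 0.0816 against 0.817 and 0.279. In CD4 T cells 0 of 6 members lay higher in both tumors, where 29% of all genes did.

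ILC2 had 2 of 6 members called, against 5.65% of all genes. Iigp1 went from 7 and 0 UMIs in 245 and 171 control cells to 5 and 5 UMIs in 23 and 21 tumor cells. Its log2 fold change was 4.56 (SE 0.856, adjusted p = 0.00217). Of the tumor UMIs, 4 of the 5 of skin tumor 1 and all 5 of skin tumor 2 came from 1 cell each. Irgm2 went from 0.180 and 0.109 to 0.771 and 1.18 (2.37, SE 0.579, adjusted p = 0.0111), and without control skin 1 or control skin 2 it was not called (2.71 and 2.11), nor with stricter gates (1.94). Tumor ILC2 were shallower than control ILC2, with medians of 2740 and 2811 UMIs per cell against 8552 and 8329. The 10 top genes of tumor ILC2 held the gate's markers Gata3, Il5 and Il1rl1. They also held the T cell gene Trat1, and Il2ra and Ikzf2, which stood in the top 10 of tumor Treg too. At this depth a T cell without a counted CD3 UMI could enter the gate. Whether the 2 calls come from ILC2 was not tested. In ILC2, 3 of 6 members lay higher in both tumors, against 23.2% of all genes.

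The remaining types gave 0 calls by edgeR. By unadjusted p, 1 member was higher in natural killer cells, 1 in neutrophils, 0 in mast cells and 4 in DETC, and DESeq2 called 2 in DETC and 0 in the others. In natural killer (NK) cells, 3 members were tested, and 1.4% of all genes were called higher. Irgm2 stood at 0.144 and 0.0329 against 0.247 and 0.343 (1.53, SE 0.621, adjusted p = 0.246), and all 3 lay higher in both tumors, against 23.5% of all genes. Iigp1 had no UMI in 58 control NK cells and 22 UMIs in the tumors, at least 3.21-fold higher against a floor of 3 UMIs over both controls. In neutrophils, 3 members were tested where no gene in 3532 was called higher, and Ifi47 stood at 0 and 0.167 against 1.00 and 0.321 (2.34, SE 0.886, adjusted p = 0.750). Here 2 of 3 lay higher in both tumors, against 22.5% of all genes. Mast cells had 1 member tested, Tgtp2, at 0.692 and 0.161 against 0.125 and 0.938 (0.70, SE 0.875, adjusted p = 0.657), where 2.77% of all genes were called higher. In DETC, 7 members were tested and 0.0297% of all genes were called higher. Iigp1 had a log2 fold change of 8.36 (SE 1.54, adjusted p = 0.402), but 26 of the 28 Iigp1 UMIs in skin tumor 1 came from 1 of its 10 cells, and the level in skin tumor 2 was 0.0984. Without control skin 1, control skin 2 or skin tumor 2 it was called (8.08 to 11.5). In DETC, 6 of 7 members lay higher in both tumors, against 16.4% of all genes.

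Whether the tumor effect was unequal between types was tested in 1 model over the sums of all 13 fitted types, with the library as a block. It was unequal for Irgm2 (adjusted p = 0.0245), Tgtp2 (0.0260) and Iigp1 (0.0449), 3 of 8 members, while 14.8% of 10659 genes were called (edgeR's quasi-likelihood F test, Benjamini-Hochberg). For Igtp (0.137), Irgm1 (0.149), Ifi47 (0.304), Tgtp1 (0.566) and Gm4951 (0.965) it was not called. Gm4951 had no control UMI in mDC, neutrophils, mast cells, CD8 T cells, CD4 T cells or NK cells. Tgtp1 had none in mDC, neutrophils or mast cells. For these 2 genes the test cannot tell an equal effect from too few counts. Irgm2 also had no control UMI in mast cells, Tgtp2 none in mDC and Iigp1 none in neutrophils, mast cells or NK cells. Of 104 effects of 1 type against the mean of the other types, 0 were called by edgeR, and 15 had an unadjusted p under 0.05. Some of these effects had an SE far too large for a call, such as 54955 for Iigp1 in mast cells and 530 for Tgtp2 in cDC2. For those, the absence of a call says nothing of the effect. Over all genes the share called was 0.0938% in C1q macrophages, 0.0375% in monocyte-like cells, 0.948% in cDC1, 0.497% in cDC2, 1.03% in mDC, 0.328% in neutrophils, 1.83% in mast cells, 0.694% in DETC, 0.826% in CD8 T cells, 0.507% in CD4 T cells, 0.0188% in Treg, 0.0375% in NK cells and 7.48% in ILC2. The nearest was Tgtp2 in CD4 T cells, lower than in the other types (a log2 difference of -2.86, SE 0.712, adjusted p = 0.0521). The number called was 0 without control skin 1, 1 without control skin 2 (Irgm2, 0.0277), 0 without skin tumor 1 and 2 without skin tumor 2, where 47 of 11169, 437 of 12414, 485 of 10709 and 1513 of 12698 genes were called.

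The change in macrophages was spread over many cells. Thinned to 1000 UMIs each, 1 of 66 control macrophages had an Iigp1 UMI in control skin 1 (1.52%, 95% Wilson interval 0.268 to 8.10) and 0 of 207 in control skin 2, which allows up to 1.45% of cells with a UMI at that depth and does not bound the share of cells that express the gene. In skin tumors 1 and 2 it was 275 of 1973 (13.9%, 12.5 to 15.5) and 71 of 683 (10.4%, 8.32 to 12.9). Unthinned, the shares were 6.06% and 4.83% against 53.8% and 45.5%. For Gm4951 the thinned shares were 1.52% and 1.45% in the controls and 10.6% and 7.32% in the tumors. In CD8 T cells of the same tumors, where Gm4951 was near 0, its thinned shares were 0.360% of 278 cells and 0% of 38 cells, the last allowing up to 7.89% of cells with a UMI at that depth. The median cell held 19279 and 20197 UMIs in tumor macrophages, 18472 and 14148 in control macrophages, and 13564 and 10028 in tumor CD8 T cells. The intervals cover counting error only.

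Per cell, the summed level had a median of 0.494 and 0.285 UMIs per 10,000 in control macrophages and of 2.99 and 2.23 in tumor macrophages, unthinned. No IRG UMI was found in 45.5% and 48.3% of control macrophages and in 11.6% and 14.9% of tumor macrophages. At least 4 members were found in 3.03% and 4.35% against 41.6% and 34.4%. The tenth of macrophages with the highest level gave 44.3% to 54.0% of the family's sum, a share that was not set against counting error.

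**Figure D5:**
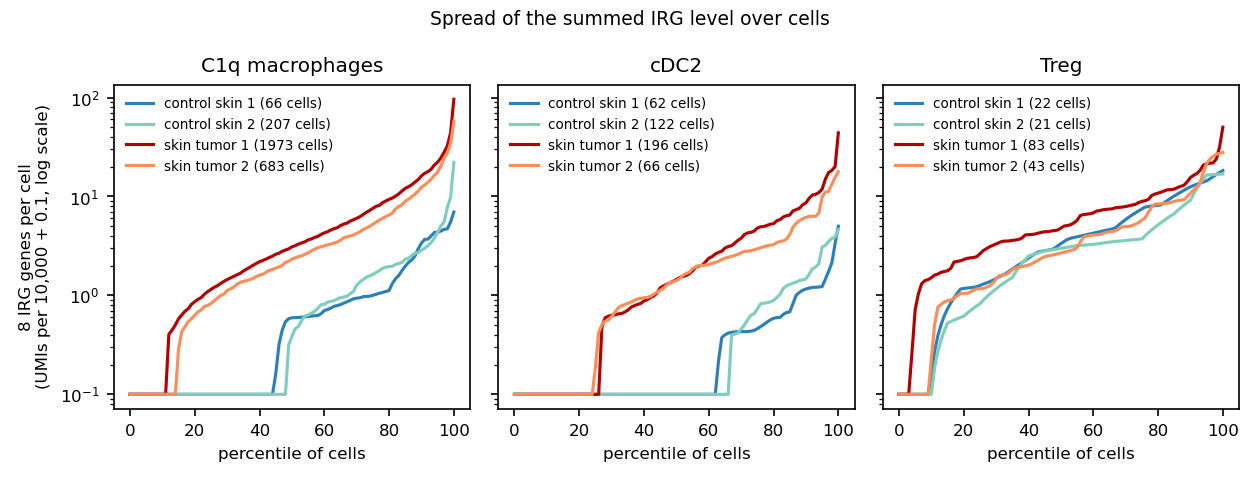
Summed level of the 8 IRG genes in each cell (y axis, UMIs per 10,000 plus 0.1, log scale) against the percentile of the cell within its library (x axis), for C1q macrophages, cDC2 and Treg, 1 line per library. In C1q macrophages the tumor lines lie above the control lines along most of the range (medians 2.99 and 2.23 against 0.494 and 0.285). In Treg the medians were 3.23 and 2.89 in the controls and 4.69 and 2.58 in the tumors.

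Genes that work beside the IRGs were examined as lists. In C1q macrophages 4 of 9 tested GBPs rose and none fell, with a median of 2.45 against 0.03 over all genes. Of all genes tested there, 26 of 12274 were called higher. Gbp4 rose from 8.35 and 6.67 CPM (counts scaled to a common library size with TMM factors) to 68.7 and 56.5 (3.03, SE 0.255, adjusted p = 0.0212), and Gbp2, the most abundant, stood at 66.8 and 40.01 against 130 and 151 CPM (1.36, SE 0.278, adjusted p = 0.123). Of 11 genes of interferon-γ signalling, 1 was called higher there and 0 lower by edgeR (5 higher and 0 lower at an unadjusted p under 0.05, and 4 and 0 by DESeq2), and the kinase Jak1 was at 322 and 321 against 319 and 333 CPM. Of 18 type I interferon genes, 0 were called there by edgeR, with a median of 0.84, but 9 were higher at an unadjusted p under 0.05 and 5 by DESeq2. Among them Oasl1 stood at 190 and 211 against 512 and 495 CPM (adjusted p = 0.0650, edgeR).

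In cDC2, 12 of 18 genes of the type I list rose (median 2.06), where 382 of 9270 genes tested were called higher. Far more genes were called in cDC2 than in macrophages, so counts called in the 2 types cannot be set against each other. Also in cDC2, 4 of 7 tested GBPs and 4 of 10 interferon-γ signalling genes rose, and none fell. The 10 genes of ATG8 conjugation had 0 calls by edgeR in macrophages (median -0.13; 0 at an unadjusted p under 0.05, 0 by DESeq2) and 0 in cDC2 (median -0.27; 0 and 0). Gabarap, an ATG8 protein, stood at 450 and 422 against 411 and 456 CPM in macrophages. Of 10 names of other IRG loci, 8 were counted, and of these 0 were called by edgeR in macrophages (median 0.54; 2 unadjusted, 1 by DESeq2) and 1 of 3 in cDC2. The most abundant, 9930111J21Rik2, stood at 35.7 and 36.7 against 62.7 and 37.2 CPM in macrophages. Dissociation genes had 0 calls by edgeR in macrophages (median -0.02). At an unadjusted p under 0.05, 3 were higher and 2 lower, and by DESeq2 2 and 2. Hspa1a stood at 1395 and 1101 against 2255 and 2252 CPM.

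The genes outside the family whose level moved most like the 8 summed members, over 57 sums of a type and a library (30 control and 27 tumor) and 8116 genes, were Gbp7 (Pearson r = 0.740 on the log2 scale), Ly6a (0.715), Nmi (0.706), Gvin1 (0.694) and Trim14 (0.689). Ly6e (0.646), Sash3 (0.624), Ifi203 (0.620) and 1600014C10Rik (0.620) followed. Sums of 1 library share its depth and handling, and part of each r is the difference between tumor and control. Over the 9 genes named r ran from 0.393 (Ifi203) to 0.696 (Sash3) within the control sums and from 0.258 (Trim14) to 0.835 (Ly6e) within the tumor sums. Among the members themselves, Ifi47 and Tgtp2 were the pair most alike (r = 0.713), and Irgm1 and Irgm2 the pair least alike (0.240), although both are regulators.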

How the data were processed

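Deposited UMI count matrices of 4 libraries were used (2 control skins, 2 skin tumors). The authors made these counts with Cell Ranger (7.1.0 in the submitters' processing notes, 7.0.1 in the file headers) on mm10, so each count is 1 distinct molecule per gene and cell, not normalized. Whether intronic reads were counted is not given in the sources used here. Cells needed 1000 UMIs, 100 genes and a mitochondrial share under 15%, with a minimum log ratio of genes to UMIs of 0.8. Of the gene IDs, 30934 matched GENCODE vM21 (GRCm38), and 6 of 8 members had a RefSeq promoter. Types were gated on marker UMIs. The bounds were set after the files were read, on markers and never on an IRG gene, and cells in the gates of 2 lineages were left out. No doublet caller was applied to the main values. The members, lists and markers were chosen with earlier results of these data known.

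Counts were summed per library and type, for types with at least 10 cells in each library. Langerhans cells and dermal γδ T cells did not reach this in the tumors. Tumor and control sums were compared with edgeR 4.0.16 (R 4.3.3) by its quasi-likelihood test. Low counts were dropped by filterByExpr, libraries were scaled by TMM, and p-values were adjusted after Benjamini-Hochberg over all genes tested, with a threshold of 0.05. Alternatives were DESeq2 1.42.0, its size factors, no low-count filter, only the UMI minimum, stricter gates, removal of cycling cells or of 40 to 229 cells per library by doublet score (Scrublet in scanpy 1.11.5), a block on the replicate number, and each library left out. The methods of the study compare cells with Seurat's FindAllMarkers. Here the library was the replicate, with 2 per group. The labels do not say whether libraries came from separate animals, so p-values measure only the spread between these samples. All 8 members are named, with those list genes that were highest, or changed most among the called, in C1q macrophages, and the 10 other genes most correlated with the summed members, of which 1 is not reported here. Equal replicate numbers did not pair the libraries. For shares of cells, every cell was thinned to 1000 UMIs. Library depth was 34893543 to 73904272 UMIs.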

Additional observations from a re-analysis of the deposited data

Results flagged for a closer look

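The tumor effect was unequal between the 13 fitted cell types for Irgm2 (adjusted p = 0.0245), Tgtp2 (adjusted p = 0.0260) and Iigp1 (adjusted p = 0.0449), by edgeR's quasi-likelihood F test in 1 model over all sums. The same test called 1579 of 10659 genes. None of the 3 members was called in every fit with 1 library left out. With stricter gates Iigp1 was not called (adjusted p = 0.229, same test), and it had no control UMI in neutrophils, mast cells or NK cells.

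Cells outside the 15 gates also held IRG transcripts. In cells in no gate, the summed members stood at 1.13 and 0.875 UMIs per 10,000 in control skins 1 and 2 and at 4.19 and 3.2 in skin tumors 1 and 2, both above both controls. In the cells gated as not immune (keratinocyte or fibroblast markers), they stood at 0.746 and 0.527 in the controls and at 3.35 and 4.02 in the tumors. Iigp1 alone stood at 0.0829 and 0.0146 against 1.08 and 1.93 in those not-immune cells. These differences have no test, and what these cells are was not tested.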

How the results depend on the processing

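Of the 16 pairs called higher, 14 were kept by DESeq2 (2 lost, 8 gained, of 62 pairs with a value), 16 with DESeq2's size factors and with only the 1000-UMI minimum (0 gained), 16 without the low-count filter (16 gained), 16 without cells marked by doublet score (2 gained), 10 of 14 with stricter gates and 10 of 12 without cycling cells (3 gained). Types under 10 cells per library dropped out of the last 2. The total higher was 35 without the filter, which includes pairs the filter had left out, 10 with stricter gates and 2 to 26 when 1 library was left out (5 without control skin 1, 2 without control skin 2, 26 without skin tumor 2). Of the calls that could be tested, 2 of 15 were kept without control skin 1 (13 lost, 3 gained), 1 of 15 without control skin 2 (14 lost, 1 gained), 12 of 14 without skin tumor 1 and 14 of 15 without skin tumor 2. The total lower was 1 instead of 0 without the filter and without doublet scores (Tgtp2 in CD4 T cells). The single library left in a group is then assumed to vary like the other group. The causes were not tested.

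Libraries with the same replicate number did not deviate together (correlations of -0.0846 to 0.0726). With the number as a replicate block, 11 calls were kept, 5 lost and 4 gained. Lost were Gm4951 in monocyte-like cells (3.04, adjusted p = 0.0611), Iigp1 in ILC2 (4.62, 0.0883) and cDC1 (2.80, 0.124), and Irgm2 in ILC2 (2.42, 0.143) and CD8 T cells (1.80, 0.0665).

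The number of members called higher moved as follows. In C1q macrophages it was 2, against 4 with DESeq2, 7 without the filter, 5 with the replicate block, 4 without cycling cells and 0 to 7 when 1 library was left out. In monocyte-like cells it was 1, against 5 with DESeq2, 7 without the filter, 0 with the replicate block, stricter gates or no cycling cells, and 0 to 3 without 1 library. In cDC1 it was 1, against 4 without the filter, 0 with the block and 0 to 2 without 1 library. In cDC2 it was 7, with 0 to 8 without 1 library. In DETC it was 0, against 2 with DESeq2 and without the filter, 1 with the block and 0 to 3 without 1 library. In CD8 T cells it was 2, against 1 with DESeq2, the block or stricter gates, and 0 to 2 without 1 library. In CD4 T cells it was 0, with 0 to 1 without 1 library. In Treg it was 1, against 0 with DESeq2 or stricter gates and 2 without the filter. In NK cells it was 0, against 1 without the filter. In ILC2 it was 2, against 0 with the block or stricter gates, 1 without cycling cells and 0 to 1 without 1 library. The members with an unequal tumor effect numbered 3, against 6 without the filter, where 2620 of 22986 genes were called. With stricter gates the number was also 3, where 764 of 9943 genes were called. There Irgm1 (adjusted p = 0.0332, edgeR's F test) took the place of Iigp1 (0.229). Differences between types within control skin numbered 18, against 32 without the filter. Over all genes, the number called higher moved too. In C1q macrophages it was 26, against 168 with DESeq2, 521 without the filter, 173 with the block, 37 without cycling cells and 0 to 466 without 1 library. In monocyte-like cells it was 21, against 120, 457, 12 and 10, with 1 under stricter gates and 0 to 90 without 1 library. In cDC1 it was 51, against 314 without the filter, 10 with the block and 0 to 29 without 1 library, and in cDC2 382, with 2 to 1048 without 1 library. In DETC it was 3, against 252 with DESeq2, 197 without the filter, 59 with the block and 0 to 408 without 1 library. In CD8 T cells it was 349, against 187 with DESeq2, 300 with the block and 414 with stricter gates, and 144 to 944 without 1 library. In CD4 T cells it was 368, with 0 to 420 without 1 library, and in NK cells 81, with 226 without the filter. In Treg it was 96, against 44 with DESeq2, 23 with stricter gates and 265 without the filter. In ILC2 it was 405, against 36 with the block, 241 with stricter gates, 230 without cycling cells and 48 to 489 without 1 library. The mean share of tumor macrophages with an Iigp1 UMI was 12.2%, against 49.7% without thinning.

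No called pair changed sign. Pairs that were not called turned without cycling cells (Igtp to 0.26 and Irgm2 to -0.13 in CD4 T cells, Igtp to 0.52 in Treg, Irgm1 to 0.0875 in ILC2), with only the UMI minimum (Igtp to 0.0511 in Treg) and with stricter gates (Tgtp2 to -0.11 in ILC2). Without 1 library the log2 fold changes ranged from -0.69 to 2.15 for Irgm2 in cDC1, -1.24 to 1.91 for Tgtp2 in mast cells, -7.83 to 2.59 for Tgtp2 in DETC and -0.19 to 0.98 for Irgm1 in CD8 T cells. In CD4 T cells they ranged from -0.25 to 0.61 for Ifi47, -0.30 to 0.85 for Irgm2 and -0.11 to 2.75 for Iigp1, in Treg from -0.57 to 0.35 for Igtp and -0.52 to 2.69 for Irgm1, and in ILC2 from -0.30 to 1.09 for Igtp. With 2 libraries per group, and 10 to 23 tumor cells in DETC and ILC2, small differences were not detectable.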

Other observations

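Langerhans cells and dermal γδ T cells had too few tumor cells to be tested. The 8 genes summed to 0.179 and 0.195 UMIs per 10,000 in the Langerhans cells of control skins 1 and 2, and to 0 in 1 cell and 1.95 in 6 cells of skin tumors 1 and 2. In dermal γδ T cells they summed to 1.43 and 0.825 in the controls, and to 6.04 in 16 cells and 1.64 in 1 cell of the tumors.

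Ifng, the gene of interferon-γ, was counted mostly in lymphocytes. In CD4 T cells it stood at 93.1 and 41.5 CPM in the controls and at 217 and 315 CPM in the tumors, a log2 fold change of 1.88 (SE 0.340, adjusted p = 0.00881, edgeR). In CD8 T cells the groups overlapped (log2 fold change -0.01, SE 0.400). In NK cells Ifng stood at 227 and 105 against 269 and 373 CPM, and in ILC2 at 10.8 and 5.63 against 62.7 and 34.1 CPM. The tumor ILC2 were 23 and 21 shallow cells, and whether T cells had entered that gate was not tested. Ifnb1, a type I interferon gene, stood at 0 and 0.444 CPM in control cDC2 and at 10.3 and 29.6 CPM in tumor cDC2. In C1q macrophages it stood at 0 and 6.36 CPM in the controls and at 22.5 and 14.0 CPM in the tumors. In monocyte-like cells it stood at 0 and 0 against 15.2 and 0.310 CPM.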
